A study of Mus musculus with 6 samples.

Results

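The core circadian clock genes are the transcription factors and repressors whose mutual feedback gives nearly every cell, hepatocytes included, a daily rhythm of transcription. They were taken here as the 10 genes Arntl, Clock, Npas2, Per1, Per2, Per3, Cry1, Nr1d1, Nr1d2 and Dbp, found by symbol among the 29981 rows of the gene table. All 10 had a row, and that of Nr1d1 also names a sequence record, so its value is shared. Livers came from C57BL/6 mice with Abca1, which exports cholesterol and phospholipid from cells, deleted in hepatocytes by a Cre recombinase under the Albumin promoter (HSKO, n = 3), and from mice with floxed Abca1 and no stated Cre, labelled wildtype (WT, n = 3). Every mouse had food removed at 9 am and its liver taken after 1 pm. The labels state no age, sex or lighting schedule. They also tie no sample to an individual mouse, so the spread behind each p-value is that among samples and may be technical. Setting HSKO against WT asks how liver transcripts differ without Abca1 in hepatocytes, here at a single time of day.

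In the clock, CLOCK, or its relative NPAS2, pairs with the product of Arntl (BMAL1) and binds E-boxes to switch on the Per, Cry and Nr1d genes and Dbp. PER and CRY proteins then block that pair, while the nuclear receptors encoded by Nr1d1 and Nr1d2 (REV-ERBalpha and REV-ERBbeta) repress Arntl and Npas2 at sites they share with the ROR activators. Dbp encodes a PAR bZIP factor that acts on D-boxes and passes the rhythm to metabolic genes. In mouse liver, Arntl and Npas2 messenger RNA is low when that of Nr1d1 and Dbp is high, so the relative level of these genes depends on the hour of collection.

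The sequences below show these elements as they stand before an annotated start site of 4 of the genes. They are printed on the strand of the gene, from RefSeq (GRCm38.p6, the assembly also called mm10), with the motif in capitals. The Cry1 stretch (chr10:85185084-85185139, minus strand) and the Per1 stretch (chr11:69098758-69098813, plus strand) each hold the E-box CACGTG, the Per3 stretch (chr4:151044791-151044895, minus strand) holds 2 copies of a D-box searched as TTANGTAA, and the Nr1d2 stretch (chr14:18239153-18239208, minus strand) holds AGGTCA, the half-site read by REV-ERB and ROR receptors.
Cry1: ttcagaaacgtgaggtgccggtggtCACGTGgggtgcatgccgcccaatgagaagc
Per1: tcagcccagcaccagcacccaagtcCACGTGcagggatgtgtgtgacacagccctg
Per3: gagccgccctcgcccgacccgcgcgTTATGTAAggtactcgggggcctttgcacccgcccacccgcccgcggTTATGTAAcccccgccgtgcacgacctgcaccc
Nr1d2: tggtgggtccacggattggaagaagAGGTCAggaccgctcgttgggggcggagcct
The search covered both strands of the 250 bases before each start site. The E-box stood in 6.02% of the 32851 promoters of that length, the D-box in 2.06% and the half-site in 14% of them. The 9 clock genes with a promoter sequence had 13 such windows. Of these genes, 2 held the E-box (Cry1 and Per1), 1 the D-box (Per3) and 3 the half-site (Clock, Per1 and Nr1d2). These are counts of genes and the percentages are of single promoters, so the 2 cannot be compared directly. Both Per1 matches lie inside the span of Per1, before an internal start site. The half-site counted for Clock likewise lies inside the span of Clock. A match describes these letters in this window and does not show a bound site. The half-site was searched without the bases beside it, so a match does not single out REV-ERB or ROR receptors.

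The gene table holds few reads per library, which limits what can be said of these genes. Total reads, summed over its rows, were 631020 to 702013 in HSKO and 838637 to 933319 in WT. A single row, BC071253, took 46.2% to 57.8% of them in HSKO and 43.1% to 52.9% in WT. The number of reads sequenced is not given here. Size factors, the authors' divisors for each library, were 0.684 to 0.752 in HSKO and 1.31 to 1.77 in WT. A single read therefore counts for more in an HSKO library, and depth and genotype cannot be told apart. The factors did not simply follow total reads. WT replicate 3 had the fewest reads of the WT libraries (838637) and the largest factor (1.77). Abca1 had 2, 1 and 2 reads in the HSKO libraries and 20, 36 and 34 in the WT libraries and thus matched all 6 labels. The 14 hepatocyte markers all had reads. They took 1.06% to 1.66% of reads in HSKO and 2.25% to 3.87% in WT. The main test described below called 5 of the 14 lower and 0 higher in HSKO. Of all rows tested, it called 11.6% lower and 28.5% higher. It tested 2 Kupffer cell, 1 stellate cell and 1 erythroid marker and called 1, 1 and 0 of them lower and 0 higher. Markers of other cell types were low. Kupffer cell markers (7 of 8 with a row) summed to 23.4 to 59.8 in HSKO and 35.1 to 81.6 in WT, and 7 endothelial markers to 14.5 to 29.2 in HSKO and 32.1 to 36.1 in WT. The 7 stellate cell markers summed to 10.2 to 21.8 in HSKO and 31.3 to 36.9 in WT. For 6 cholangiocyte markers the sums were 5.32 to 17.5 in HSKO and 10.7 to 16.5 in WT with Krt19 and Krt7 at 0, and for 5 erythroid markers 14.5 to 21.3 in HSKO and 14.1 to 25.01 in WT with Slc4a1 at 0. Lymphocyte markers summed to at most 3.99 in any library with Cd3e, Ms4a1 and Nkg7 at 0, and the 4 neutrophil markers with a row had 0 reads. The part of hepatocyte share, depth or other cells in the results below was not tested, and in whole liver, fewer cells of a type and less RNA per cell cannot be told apart.

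Of the 10 clock genes, Dbp had the most reads and a mean of 36.2 in HSKO livers against 35.7 in WT livers. Nr1d2 averaged 5.71 in HSKO against 14.5 in WT and did not pass the main test, and the other 8 were too scarce for it. No clock gene was called at an adjusted p below 0.05 by the main test, limma on log2(value + 1) among 2750 rows averaging 10 or more, which only Dbp and Nr1d2 reached. That test called 40.1% of all rows tested, 28.5% higher and 11.6% lower in HSKO. At an unadjusted p below 0.05 limma had 1 clock gene, Nr1d2, edgeR with adjustment called the same 1 gene lower, and DESeq2 called 0. edgeR called 21.9% of rows lower and DESeq2 11.8%. Without the filter, 9 clock genes had reads and limma called 0 of them (1 at an unadjusted p below 0.05), where it called 6.05% of 13807 rows. Their median log2 fold change was then -0.33, 7 below 0 and 2 above, beside -0.22 for all those rows. In each fit, the share of all rows at an unadjusted p below 0.05 is at least the share called.

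**Figure D1:**
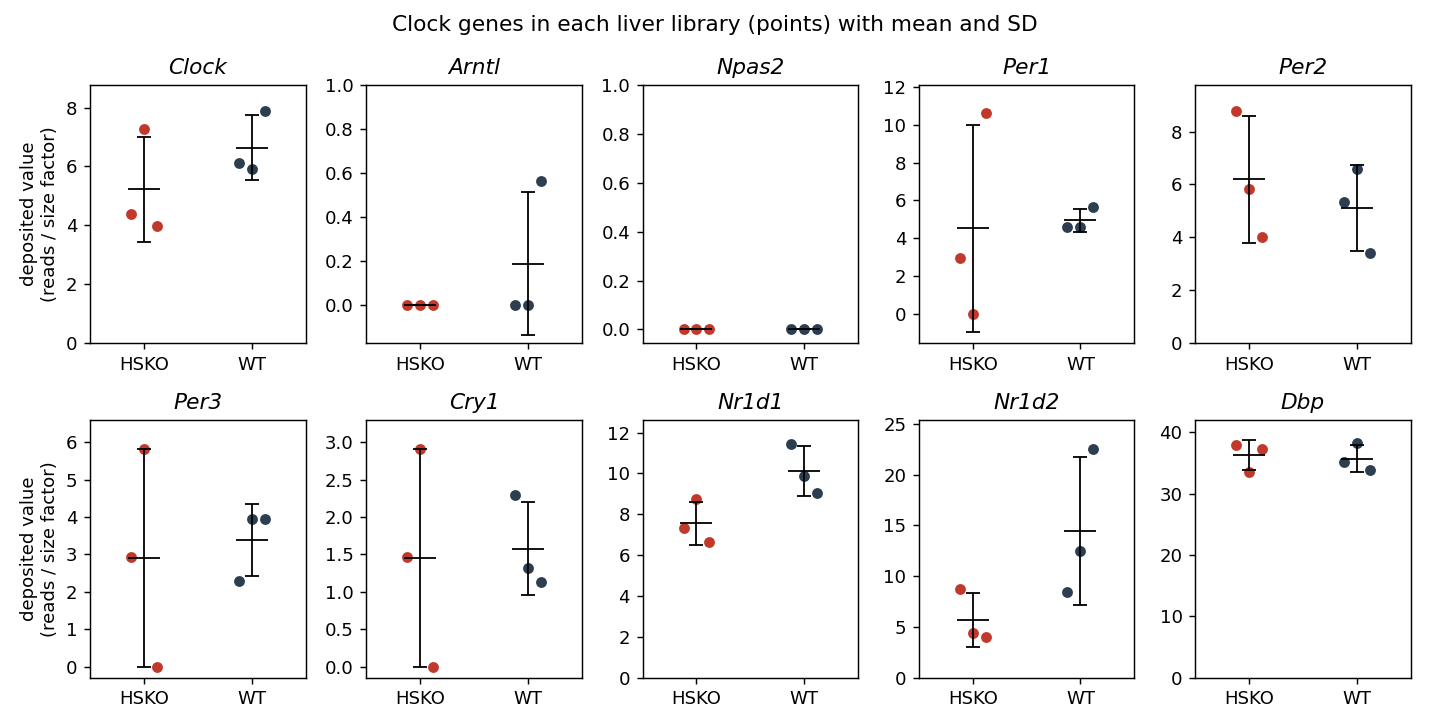
Deposited value (reads divided by a size factor) of each clock gene in the 3 HSKO and 3 WT libraries, with mean and SD. The vertical axis starts at or below 0 and has its own scale in each panel. Dbp lies between 33.4 and 38.2 in all 6 libraries, Nr1d2 reaches 22.6 in a WT library and no more than 8.77 in HSKO, and Npas2 is at 0 throughout.

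The activators Clock, Arntl and Npas2 were scarce. Clock, which encodes the DNA-binding partner of BMAL1 and lies on chromosome 5 from 76209868 to 76304792 in mm10, had values of 4.39, 7.27 and 3.99 in HSKO livers and 6.11, 5.92 and 7.90 in WT livers. The groups overlapped, and its 11 HSKO and 31 WT reads gave a ratio of HSKO to WT of 0.769 after correction for size factors (exact 95% interval 0.349 to 1.57, which like all read intervals here covers counting error only). Arntl, on chromosome 7 from 113207465 to 113314126, had 0 reads in HSKO and 1 read, in WT replicate 3, in all. Npas2, on chromosome 1 from 39193731 to 39363236, had 0 reads in all 6 libraries. A count of 0 allows up to 3 reads in a group, equal to 1.41 in HSKO and 0.652 in WT on the scale of the deposited values, so a difference in Arntl or Npas2 was not detectable at this depth.

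The Per genes and Cry1, which encode the repressors of the CLOCK and BMAL1 pair, had between 0 and 10 reads in every library. Per1, on chromosome 11 from 69095217 to 69109960, was at 2.92, 0 and 10.6 in HSKO and 4.58, 4.61 and 5.64 in WT. Its HSKO libraries spread on both sides of the WT range, and the read ratio was 0.942 (exact 95% interval 0.400 to 2.06). Per2, on chromosome 1 from 91415982 to 91459324, was at 8.77, 5.82 and 3.99 in HSKO and 5.34, 6.58 and 3.38 in WT. Those groups overlapped as well, with a ratio of 1.22 (0.570 to 2.52). Per3, on chromosome 4 from 151003652 to 151044665, had 2, 4 and 0 reads in HSKO and 3, 6 and 7 in WT (ratio 0.813, interval 0.260 to 2.19). Cry1, on chromosome 10 from 85131700 to 85185064, had 1, 2 and 0 reads in HSKO and 3, 2 and 2 in WT (ratio 0.929, 0.155 to 4.07). These intervals are wide enough to hold both a halving and a doubling for Per1, Per3 and Cry1, and for Per2 a doubling.

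The REV-ERB genes averaged less in HSKO than in WT, and for Nr1d2 the interval for counting error alone lay below 1. Nr1d1, on chromosome 11 from 98767932 to 98775333, was at 7.31, 8.72 and 6.65 in HSKO livers and 11.4, 9.87 and 9.02 in WT livers. Each HSKO library lay below each WT library, the only clock gene of which this was true. It was 1 of the 5 clock genes with a mean of at least 5, and at that level 18.8% of 4495 rows were lower in HSKO without overlap, so the share is near the background. The levels averaged 7.56 ± 1.06 in HSKO and 10.1 ± 1.23 in WT (SD, n = 3), and the ratio of 16 to 46 reads was 0.754 (0.398 to 1.36). With a minimum mean of 5 in place of 10, its log2 fold change in limma was -0.38. With no filter it was also -0.38 (SE 0.38, limma adjusted p = 0.635). Scaling to hepatocyte markers raised the median log2 fold change of all rows tested by 0.53, which exceeds the size of the Nr1d1 difference. The direction of Nr1d1 under that scaling was not tested.

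Nr1d2, on chromosome 14 from 18204054 to 18239127, was at 8.77, 4.36 and 3.99 in HSKO and 8.39, 12.5 and 22.6 in WT. WT replicate 3 was the highest and HSKO replicate 1 lay just above WT replicate 1, so the groups touched. The means were 5.71 ± 2.66 in HSKO and 14.5 ± 7.29 in WT (SD, n = 3). The log2 fold change was -1.17 (SE 0.48, 95% interval -2.17 to -0.18, limma adjusted p = 0.0560). The added pseudocount of 1 makes this fold change smaller than the ratio of the means. Its 12 HSKO and 70 WT reads gave a ratio of 0.371 (0.183 to 0.691), the only interval among 8 clock genes with enough reads that lay wholly below 1. The share of all rows with such an interval was not computed. Libraries of a group differed by more than counting error, with a chi-square per degree of freedom of 2.1 to 8.7 between pairs, so these intervals are too narrow for replicates.

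The call of Nr1d2 depended on the processing. edgeR called it lower (log2 fold change -1.61, adjusted p = 0.00945), while DESeq2 did not (-1.53, adjusted p = 0.0537). Scaling to hepatocyte markers gave -0.67 (limma adjusted p = 0.335), and without WT replicate 3 it was -0.82 (adjusted p = 0.328). Over all 20 alternatives the adjusted p lay between 0.00945 and 0.335 and the direction stayed the same.

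**Figure D2:**
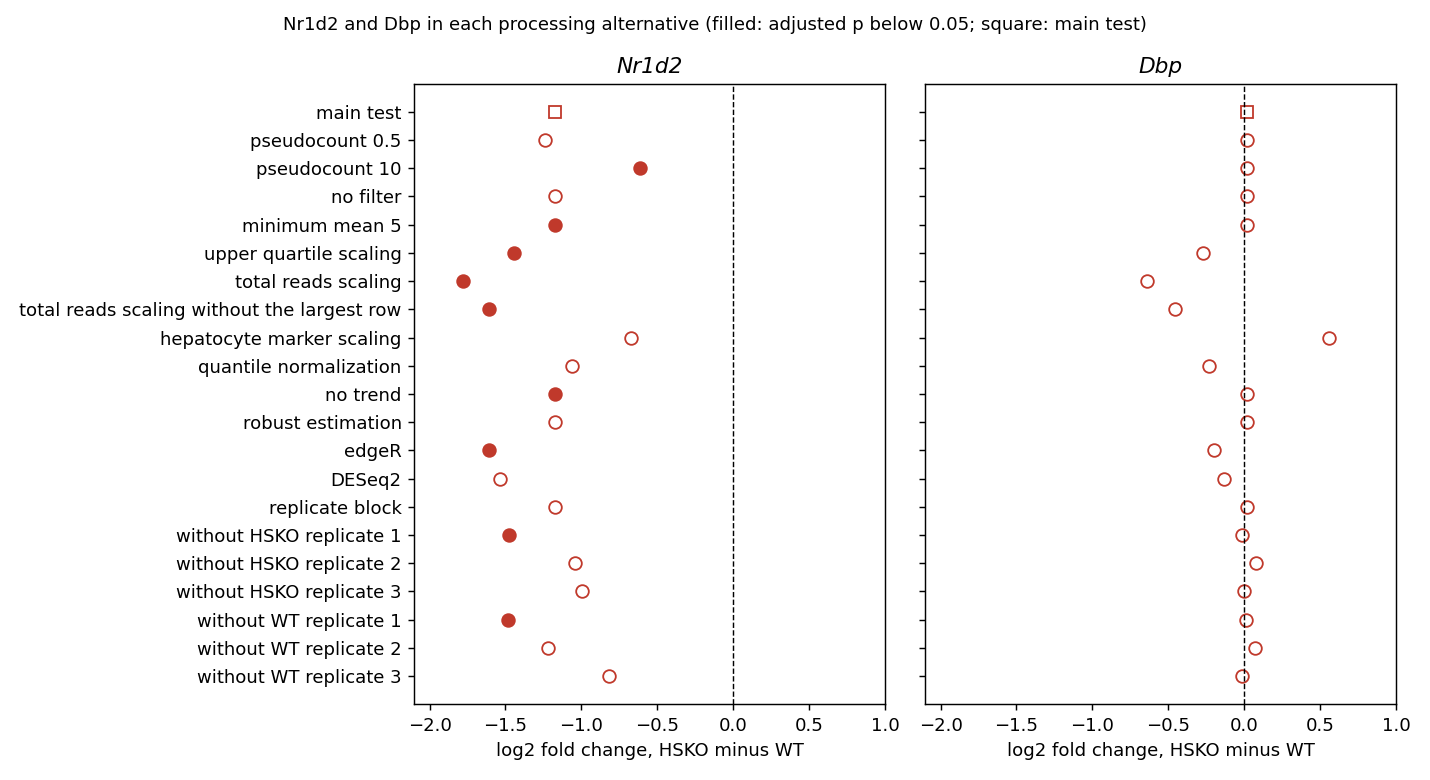
Log2 fold change of Nr1d2 and Dbp, HSKO minus WT (horizontal axis), under the main test (square) and each of 20 processing alternatives (circles, filled where the adjusted p was below 0.05). Nr1d2 is below 0 throughout, from -1.78 with scaling to total reads to -0.61 with a pseudocount of 10, and filled in 9 alternatives. Dbp lies on both sides of 0, from -0.64 with total reads to 0.56 with hepatocyte markers, and is never filled.

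Dbp, the output factor, on chromosome 7 from 45705088 to 45710203, was at 38.0, 33.4 and 37.2 in HSKO livers and 35.1, 38.2 and 33.8 in WT livers. The groups overlapped fully and the levels were 36.2 ± 2.44 in HSKO and 35.7 ± 2.23 in WT (SD, n = 3). Its log2 fold change was 0.02 (SE 0.25, 95% interval -0.51 to 0.55, limma adjusted p = 0.955), and its 77 HSKO and 164 WT reads gave a ratio of 1.02 (0.766 to 1.34). The sign of this small difference followed the scaling. Scaling to total reads gave -0.64 (adjusted p = 0.0652), and hepatocyte markers gave 0.56 (adjusted p = 0.157).

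Dbp and Nr1d1 each share exon sequence with a gene on the opposite strand, and no source states whether the counting used strand. Sphk2, which encodes a sphingosine kinase, shares 539 exon bases with Dbp in GENCODE M21 and was at 1112, 1629 and 1847 in HSKO and 715, 766 and 540.3 in WT. It was called higher (log2 fold change 1.17, limma adjusted p = 0.00153, and adjusted p = 0.0684 with scaling to total reads). Thra, the thyroid hormone receptor alpha gene, shares 263 exon bases with Nr1d1 and was at 102, 131 and 168 in HSKO and 89.3, 114 and 66.0 in WT (log2 fold change 0.57, adjusted p = 0.0884). Scaling to total reads turned the sign of Thra (-0.10, adjusted p = 0.769). Reads of either pair cannot be told apart here, and the row of Sphk2 was far above that of Dbp in total reads. Camta1 spans Per3 on the same strand without shared exon bases and had 23 reads in HSKO and 18 in WT (ratio 2.77, 1.43 to 5.45).

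**Figure D3:**
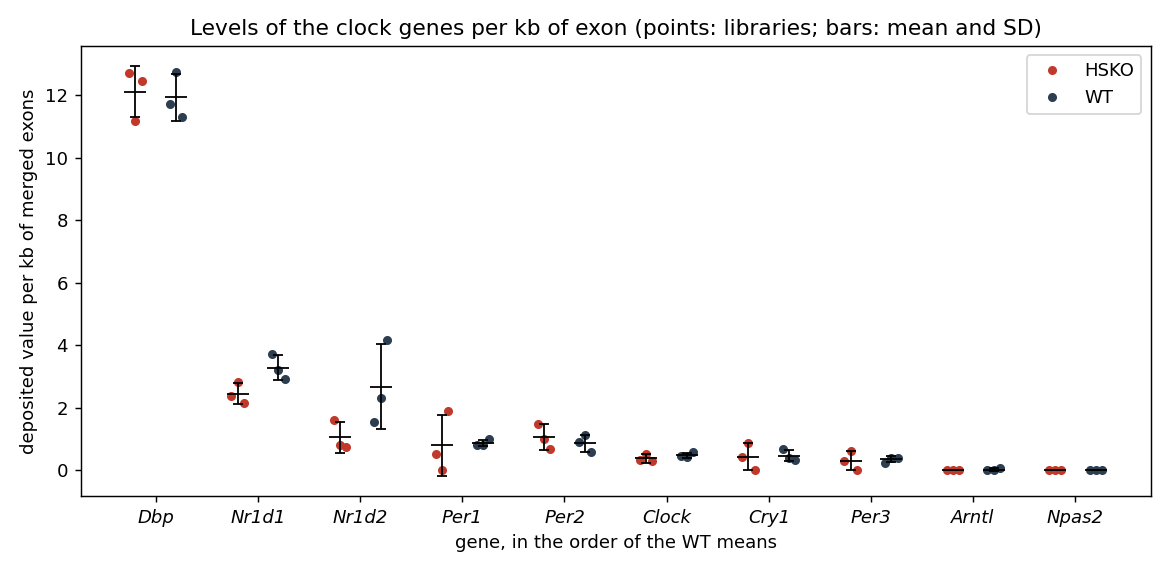
Deposited value per kilobase of merged GENCODE M21 exons (vertical axis, linear) for each clock gene, in the order of the WT means, with the 3 HSKO libraries left of the 3 WT libraries and mean and SD bars. Dbp stands at about 12.1 in HSKO and 11.9 in WT, and every other clock gene is below 5 in each library.

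Per kilobase of exon, Dbp had the highest level of the clock genes, at 12.1 ± 0.815 in HSKO and 11.9 ± 0.744 in WT (SD, n = 3). Nr1d1 followed at 2.46 ± 0.345 in HSKO and 3.29 ± 0.400 in WT, and its range lay below that of Dbp in both groups. In WT livers Nr1d2 came next at 2.68 ± 1.35 and overlapped Nr1d1, then Per1 and Per2, which overlapped each other at 0.878 ± 0.107 and 0.871 ± 0.275, then Clock, Cry1 and Per3 between 0.353 and 0.484, each overlapping the next. In HSKO livers Nr1d2 was at 1.06 ± 0.492 and overlapped Per2 and Per1, whereas Nr1d1 lay above Per2 without overlap. Arntl and Npas2 were last in both groups, at 0 in HSKO and at 0.0250 ± 0.0433 and 0 in WT. The exon lengths are those of GENCODE and may differ from the authors' annotation. The level of Dbp may include reads of Sphk2 and that of Nr1d1 reads of Thra, which cannot be told apart.

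A ratio of 2 clock genes within a library does not depend on how libraries are scaled. The Dbp count may hold reads of Sphk2, which was called higher in HSKO, and their part in the ratios was not tested. Per read of Dbp there were 0.231, 0.130 and 0.107 reads of Nr1d2 in HSKO livers and 0.239, 0.328 and 0.667 in WT livers. Every HSKO library was below every WT library, by a narrow margin between HSKO replicate 1 and WT replicate 1. The mean log2 ratio was 1.34 lower in HSKO (difference -1.34, no test). For single deposited values, 18.8% of rows with a mean of at least 5 were lower in HSKO without overlap. The share of rows whose ratio to Dbp is so separated was not computed. For Nr1d1 the reads per Dbp read were 0.192, 0.261 and 0.179 in HSKO and 0.326, 0.259 and 0.267 in WT, so those groups touched (mean log2 difference -0.44). For Clock and Per2 the groups overlapped, with mean log2 differences of -0.41 and 0.24.

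**Figure D4:**
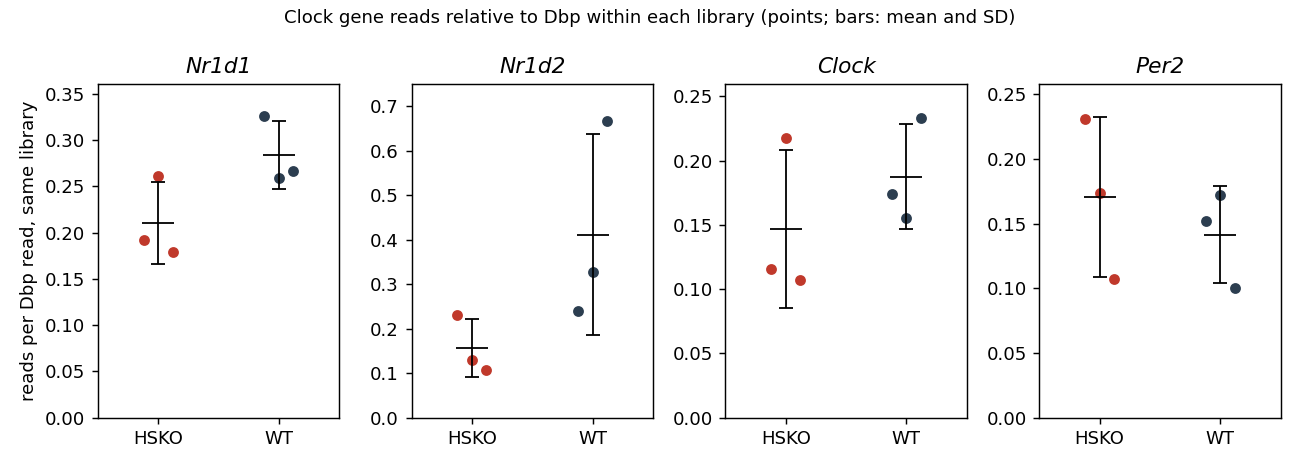
Reads of Nr1d1, Nr1d2, Clock and Per2 per read of Dbp in the same library (vertical axes from 0, own scale in each panel) for the 3 HSKO and 3 WT libraries, with mean and SD. Nr1d2 averages 0.156 in HSKO and 0.411 in WT without overlap, by a narrow margin, and the groups of the other 3 genes share part of their range. The share of all rows so separated was not computed.

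Over the 6 libraries, the 3 rows whose pattern was most like that of Dbp were Trim8, Itgb5 and Mtss1, with Pearson r of 0.967, 0.943 and 0.940 among 2296 rows compared. Trim8 averaged 11.2 ± 4.75 in HSKO and 10.7 ± 3.87 in WT (SD, n = 3). Dbp itself spanned only 0.19 on the log2 scale over these libraries, so the likeness rests on very small differences.

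Other genes listed as clock factors, not all of them transcription factors, were as scarce. Of 11 listed, 10 had a row (Cry2 is not analysed here), 8 had reads and 3 were tested. limma called 0 of the 3 (2 at an unadjusted p below 0.05, which at least 40.1% of all rows tested also had). Their median log2 fold change was -0.85, beside 0.07 for all rows tested. With adjustment, edgeR called 1 of the 3 lower, Tef (adjusted p = 0.0219), and DESeq2 called 0 (Tef adjusted p = 0.115). Tef, a PAR bZIP relative of Dbp, was at 10.2, 5.82 and 13.3 in HSKO and 16.0, 17.8 and 19.2 in WT. Its groups did not overlap, which held with HSKO lower for 18.8% of all rows with a mean of at least 5. The log2 fold change was -0.85 (SE 0.36) with a limma adjusted p of 0.0649, and the read ratio was 0.555 (0.326 to 0.905). Hepatocyte marker scaling gave Tef -0.34 (adjusted p = 0.538), total reads gave -1.48 (adjusted p = 0.00674), and leaving out HSKO replicate 2 gave -0.56 (adjusted p = 0.216). Hlf, the third PAR bZIP gene, had 2, 2 and 4 reads in HSKO and 3, 14 and 16 in WT (ratio 0.525, 0.210 to 1.2).

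Bhlhe40, an E-box repressor, was at 8.50 ± 5.87 in HSKO and 14.6 ± 5.94 in WT (SD, n = 3, log2 fold change -0.85, adjusted p = 0.172), and Timeless, better known for replication in mammals, at 21.6 ± 4.87 in HSKO and 12.8 ± 4.56 in WT (0.74, adjusted p = 0.0829). Without HSKO replicate 2 the log2 fold change of Bhlhe40 was -0.31, and it was called with total reads scaling (-1.45, adjusted p = 0.0280). That of Timeless was 0.49 without WT replicate 3, 0.11 with total reads and 1.26 with hepatocyte markers. The last of these passed (adjusted p = 0.0123), as did leaving out WT replicate 1 (0.98, adjusted p = 0.0398). Rora, which encodes an activator that competes with REV-ERB, had 15 reads in HSKO and 39 in WT, a read ratio of 0.834 (0.427 to 1.55). Nfil3, a repressor at D-boxes, had 5 reads in HSKO and 11 in WT. Ciart, which represses the CLOCK and BMAL1 pair, had 9 in HSKO and 10 in WT, and Bhlhe41, a relative of Bhlhe40, had 2 in HSKO and 6 in WT. Arntl2 and Rorb had 0 reads in all libraries.

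**Figure D5:**
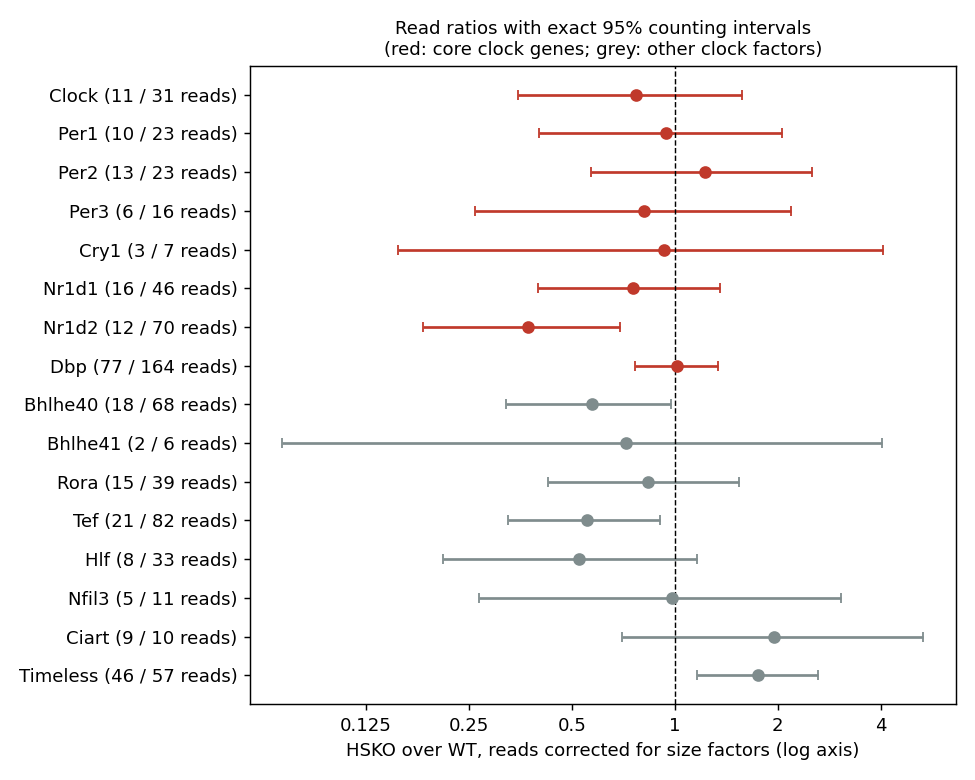
Ratio of HSKO to WT reads corrected for size factors (horizontal log axis) with exact 95% intervals for counting error, for 8 core clock genes (red) and 8 other clock factors (grey), with the summed HSKO and WT reads of each. The intervals of Nr1d2, Bhlhe40 and Tef lie below 1, that of Timeless lies above 1 and the others include it. Replicates of a group differed by more than counting error, and the share of all rows with an interval off 1 was not computed.

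Among 18 kinases, ubiquitin ligases and cofactors of the clock, 5 were tested and limma called 0 of them, beside 40.1% of all rows tested. At an unadjusted p below 0.05 there were 0, beside at least 40.1% of all rows tested. Without the filter, 1 of the 18 was called, near the 6.05% of all rows called that way. It was Fbxw11, named after its values were seen, a subunit of the ligase that marks PER proteins for breakdown. It had 0, 0 and 0 reads in HSKO and 9, 8 and 9 in WT, at least 4.0-fold lower in HSKO against a floor of 3 reads over the group (limma adjusted p = 0.00487).

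Of 32 gene symbols listed as outputs of the liver clock, some of which may name the same gene, 30 had a row. Of these, 16 were tested, 1 was higher, 2 were lower and 13 neither. Over all rows tested, 28.5% were called higher and 11.6% lower. The outputs had a median log2 fold change of -0.16, beside 0.07 for all rows tested. Lpin1, a phosphatidate phosphatase and coactivator, rose to 52.6, 61.1 and 63.8 in HSKO, against 16.0, 29.6 and 26.5 in WT (log2 fold change 1.30, adjusted p = 0.00152). Ces2e, a carboxylesterase, fell to 5.58 ± 2.55 in HSKO, against 18.2 ± 6.43 in WT (adjusted p = 0.00839), and Nudt7, a peroxisomal coenzyme A hydrolase, to 25.2 ± 7.41, against 50.4 ± 2.28 in WT (SD, n = 3, adjusted p = 0.00704). Lpin1 was not called with scaling to total reads (adjusted p = 0.0935). Under hepatocyte marker scaling Nudt7 had an adjusted p of 0.313 and Ces2e of 0.0636, and without WT replicate 2 that of Ces2e was 0.0889.

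Of 23 genes listed for their response to body temperature or feeding, signals that also set the liver clock, 7 were tested, 0 were higher, 2 lower and 5 neither, beside 28.5% of all rows called higher and 11.6% lower. Their median log2 fold change was -0.43, against 0.07 for all rows tested. The chaperone gene Hsp90aa1 fell to 26.5 ± 3.70 in HSKO, against 45.6 ± 8.92 in WT, and Pdia4, a disulfide isomerase of the endoplasmic reticulum, to 11.04 ± 8.42, against 32.1 ± 6.71 in WT (SD, n = 3, limma adjusted p = 0.0295 and 0.00330). Under hepatocyte marker scaling the adjusted p of Hsp90aa1 was 0.678 and that of Pdia4 0.0594. The call of Hsp90aa1 was also lost with no filter (adjusted p = 0.105) and without HSKO replicate 2 or 3 or WT replicate 1 or 3 (0.0545 to 0.104).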

How the data were processed

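RNA sequencing of 6 mouse livers (3 HSKO, 3 WT) was analysed from a deposited table of signal per gene. Its values are reads per gene over 1 size factor for each library, as the authors' naming and the values show. Tools listed in the submitters' processing notes are DESeq 1.16.0, RSEM 1.2.9, Bowtie and FastQC 0.11.3, on mm10, with no step assigned to any. No source used here states the annotation or strand setting. Within a tolerance of 0.001, 100% of deposited values were whole multiples of 1 read, which gave the reads; edgeR 4.0.16 called 1285 genes on them.

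limma 3.58.1 (R 4.3.3) was fitted to log2(value + 1), HSKO minus WT, 2-sided, with a mean-variance trend, on 2750 rows whose mean reached 10, with Benjamini-Hochberg adjustment over all of them. Read ratios have exact conditional 95% intervals. edgeR quasi-likelihood with TMM, DESeq2 1.42.0, pseudocounts, filters, scalings, no trend, robust estimation, the replicate number as a block and each library left out were alternatives.

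Named genes were the 10 members, the other clock factors, called genes of 3 further lists, genes overlapping a member, Abca1 and the 3 rows most like Dbp. Of the other clock factors, 1 is not reported here. Members and lists were chosen with earlier results of these data known.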

Additional observations from a re-analysis of the deposited data

How the results depend on the processing

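The number of clock genes called lower was 0 and became 1, Nr1d2, with a pseudocount of 10, a minimum mean of 5, upper quartile scaling, scaling to total reads with or without the largest row, no trend and edgeR. It ranged from 0 to 1 with a library left out, and the number called higher was 0 under every alternative. Genes called higher and lower numbered 783 and 320 in the main test, 580 and 703 with upper quartile scaling, 221 and 1044 with total reads, 428 and 913 with total reads without the largest row, 1087 and 26 with hepatocyte markers, 595 and 502 with quantile normalization, 684 and 601 with edgeR and 624 and 211 with no filter. With a library left out, 581 to 822 were higher and 157 to 313 lower, the lowest without WT replicate 3 (157) and WT replicate 2 (159). The median log2 fold change of all rows shifted by -0.28, -0.64, -0.47, 0.53, -0.09, -0.20 and -0.14 with upper quartile, total reads, total reads without the largest row, hepatocyte markers, quantile normalization, edgeR and DESeq2. The log2 fold change of Dbp, 0.02 in the main test, was -0.27, -0.64, -0.46, -0.23, -0.20 and -0.13 with the same settings other than hepatocyte markers, and lay between -0.017 and 0.075 with a library left out. That of Thra turned to -0.10 with total reads. Replicate numbers are not tied to animals or batches, and same-numbered samples did not deviate together (correlations -0.03, -0.03 and -0.02). With a replicate block 1020 genes were called, 751 higher and 269 lower, and Nr1d2 had an adjusted p of 0.0797. With 3 to 28 reads per library in HSKO for Dbp and Nr1d2, the clock genes with the highest means, depth limits every result here.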
